A study of Mus musculus with 2 samples.

Results

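Droplets that carried large amounts of both insulin and somatostatin mRNA were examined in single-cell RNA sequencing of mouse pancreatic islets. A droplet was taken as an insulin and somatostatin droplet, written Ins/Sst droplet from here on, if Ins1 and Ins2 together made up at least 15% and Sst at least 1% of its unique molecular identifiers (UMIs, the tags that count single captured mRNA molecules) and if mitochondrially encoded genes made up at most 10%. The rule found 83 such droplets among 8674, 49 of 4523 in the wild type library and 34 of 4151 in the transgenic library. These are 1.08% (95% exact Clopper-Pearson interval 0.803 to 1.43) and 0.819% (0.568 to 1.14) of the droplets, and the intervals here and below cover counting error only.

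Islets came from C57BL/6 mice at postnatal day 70. The wild type library is 1 sample and the beta cell specific miR-503 transgenic library is 1 sample, and both were made in the same way, by trypsin digestion of the islets and capture with 10x Chromium 3′ reagents. How many mice made up a library, and which promoter drives the transgene, is not given in the sources used here. There is no test between genotypes, since each has 1 library, droplets of a library are not replicates, and no p-value is given. The transgene's product is a microRNA that lowers target mRNAs through its seed, so its mature sequence is shown with the seed, bases 2 to 8, in capitals, from the RefSeq table for GRCm38.p6 (chrX:53054027-53054049, minus strand).
mmu-miR-503-5p: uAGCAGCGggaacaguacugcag

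Beta cells make insulin and lower blood glucose, and delta cells make somatostatin, a paracrine peptide that holds back the release of both insulin and glucagon. Delta cells lie among beta cells in the islet, touch them with long processes, and share with them the transcription factor Pdx1. A droplet is meant to hold 1 cell, but it can also hold 2 cells that stayed attached or entered together, and free RNA in the suspension adds some hormone mRNA to every droplet.

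The Ins/Sst droplets were compared with 3 references in the same library. Pure beta droplets had at least 25% insulin and under 1% Sst UMIs (3332 wild type and 2745 transgenic). Pure delta droplets had at least 2% Sst and under 10% insulin UMIs (181 and 337). The third reference was the sum of every pure beta with every pure delta droplet of a library, 603092 sums in the wild type and 925065 in the transgenic library, of which 88.7% and 91.9% met the rule for Ins/Sst droplets.

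The droplets were chosen by their shares of insulin, Sst and mitochondrial UMIs, so these shares are given as a description. Insulin made up 15.6 to 62.2% of UMIs in the wild type Ins/Sst droplets, with a median of 27.8%, and 15.2 to 59.5% in the transgenic ones, with a median of 39.0%. The median was 50.3% in wild type and 60.3% in transgenic pure beta droplets. The Sst share was 1.003 to 11.7% in wild type droplets, with a median of 1.99%, and 1.03 to 4.29% in transgenic ones, with a median of 2.098%. Pure delta droplets had medians of 6.73% in the wild type and 8.23% in the transgenic library. Reads of the near-identical genes Ins1 and Ins2 may be split between them, so only their sum is used. The nearest droplets to the threshold had 1.003% Sst inside and 0.983% outside in the wild type, and 1.03% inside and 0.962% outside in the transgenic library. For insulin the nearest were 15.6% inside and 14.3% outside, and 15.2% inside and 14.9% outside.

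The 1% threshold for Sst lies far above the level of free RNA but not in an empty gap. In pure beta droplets the 95th percentile of Sst was 0.0349% of UMIs in the wild type and 0.0533% in the transgenic library. Between 0.2% and 1% Sst there were a further 50 wild type and 32 transgenic droplets with at least 15% insulin, about as many as above the threshold. Their median number of detected genes, 4683.5 in both libraries, was also above that of the droplets with under 0.05% Sst (3472 and 3454). In the other direction the classes were better separated, because of the droplets with at least 1% Sst 195 of 268 in the wild type and 361 of 406 in the transgenic library had under 5% insulin.

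**Figure D1:**
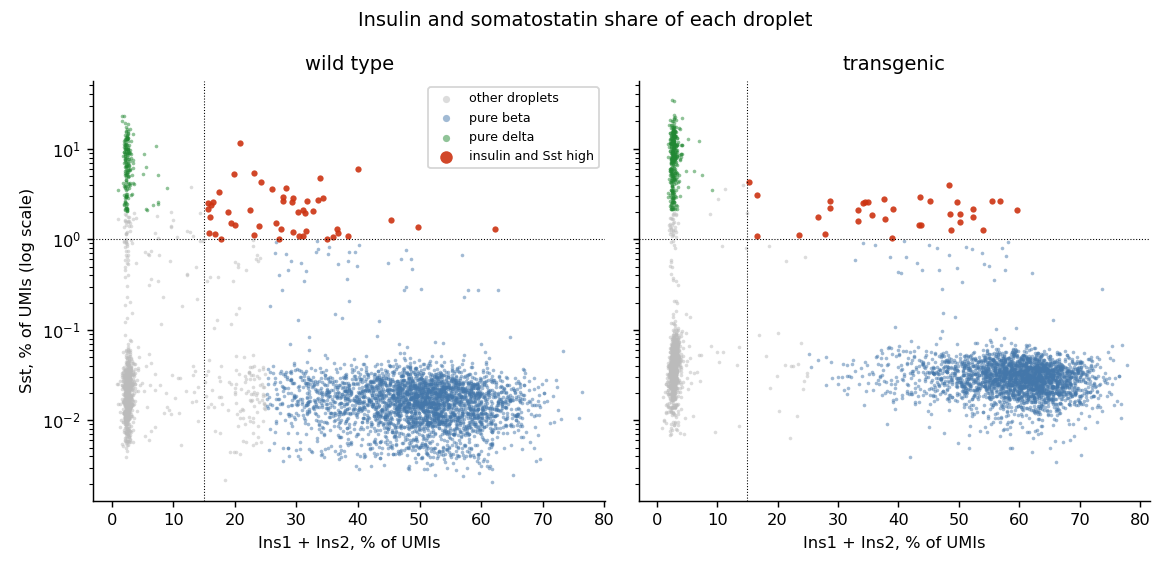
Share of insulin (x axis, Ins1 plus Ins2, percent of UMIs) and of somatostatin (y axis, percent of UMIs, log scale) in each droplet of the wild type (left) and transgenic (right) library, with dotted lines at 15% insulin and 1% Sst. The 188 wild type and 19 transgenic droplets with no Sst UMI are not drawn. The 49 and 34 Ins/Sst droplets (red) lie between the pure beta (blue) and pure delta (green) droplets, with a trail of droplets below the 1% line.

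Set against the number of delta cells, Ins/Sst droplets had a higher rate in the wild type than in the transgenic library. There were 27.1 per 100 pure delta droplets (exact Poisson interval 20.03 to 35.8) in the wild type and 10.1 (6.99 to 14.1) in the transgenic library. With Sst at least 2% the rates were 13.3 and 5.34 per 100, and with insulin at least 25% they were 16.6 and 8.90. Droplets with at least 15% insulin, at least 1% glucagon mRNA (Gcg) and under 1% Sst had the same order. There were 81 in the wild type and 52 in the transgenic library, or 17.0 (13.5 to 21.2) and 7.67 (5.73 to 10.1) per 100 droplets with at least 2% Gcg, under 10% insulin and under 1% Sst. The transgenic library had 8.12% pure delta droplets and the wild type library 4.002%, so a difference in the denominator enters these rates, and genotype and library cannot be told apart.

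The Ins/Sst droplets held about as many UMIs as pure beta droplets but more genes. Wild type Ins/Sst droplets held 11069 to 53665 UMIs (median 24075), and transgenic ones 18978 to 71943 (median 30293). Pure beta droplets had medians of 23378 and 29233, so the ratios of medians were 1.03 (95% interval 0.943 to 1.17, from order statistics of the Ins/Sst droplets) and 1.04 (0.944 to 1.36). Pure delta droplets were smaller, with medians of 9976 and 10875. The distributions of Ins/Sst and pure beta droplets overlapped over nearly their whole range.

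The Ins/Sst droplets had more detected genes than the median of either pure class. This count is tied to the rule, because at a like total a lower insulin share leaves more UMIs to other genes, and it is given as a description. Their median was 4280 genes (range 2917 to 6193) in the wild type and 4549.5 (3508 to 6287) in the transgenic library. Pure beta droplets had medians of 3463 and 3443, and pure delta droplets 2877 and 2996. The median in Ins/Sst droplets was 1.24 times (1.19 to 1.33) and 1.32 times (1.21 to 1.38) that of pure beta droplets, and 47 of 49 and 34 of 34 lay above the pure beta median, while the 95th percentile of wild type pure beta droplets was 4787 genes.

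UMIs outside the insulin genes, Sst and mitochondrial genes were also more numerous. These remaining UMIs include the other hormones (Gcg, Ppy, Pyy and Iapp). They are tied to the rule, since a lower insulin share leaves more of the total to other genes. Their median was 16215 in wild type and 16933 in transgenic Ins/Sst droplets, 1.48 and 1.52 times the pure beta medians of 10953 and 11123. Pure delta droplets had 8383 and 9010. All 34 transgenic and 47 of 49 wild type Ins/Sst droplets exceeded the pure beta median.

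Insulin mRNA showed the opposite pattern in absolute terms. The Ins/Sst droplets had a median of 6855 insulin UMIs in the wild type and 13063.5 in the transgenic library, against 11275.5 and 17241 in pure beta droplets. The ratios were 0.608 (0.480 to 0.719) and 0.758 (0.522 to 0.962), and only 4 of 49 and 10 of 34 exceeded the pure beta median. Sst UMIs had medians of 475 and 710, which were 0.660 and 0.778 times the pure delta medians of 720 and 913. Because the rule uses shares of total UMIs, these absolute hormone counts are tied to it and are a description.

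A sum of a pure beta and a pure delta droplet was larger than most Ins/Sst droplets. Sums that met the rule had a median total of 35581.5 UMIs in the wild type and 42070 in the transgenic library, and the Ins/Sst medians were 0.677 and 0.720 times these. In total UMIs 22 of 49 and 11 of 34 Ins/Sst droplets lay below the 5th percentile of the sums. Detected genes came closer, with medians of 5036 and 5073 in the sums and ratios of 0.850 and 0.897. For the remaining UMIs the ratios were 0.769 and 0.783. The Ins/Sst droplets thus lay between a pure beta droplet and a full sum in genes and in remaining UMIs, and below both in insulin UMIs, since the sums had 11337 and 17112.

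**Figure D2:**
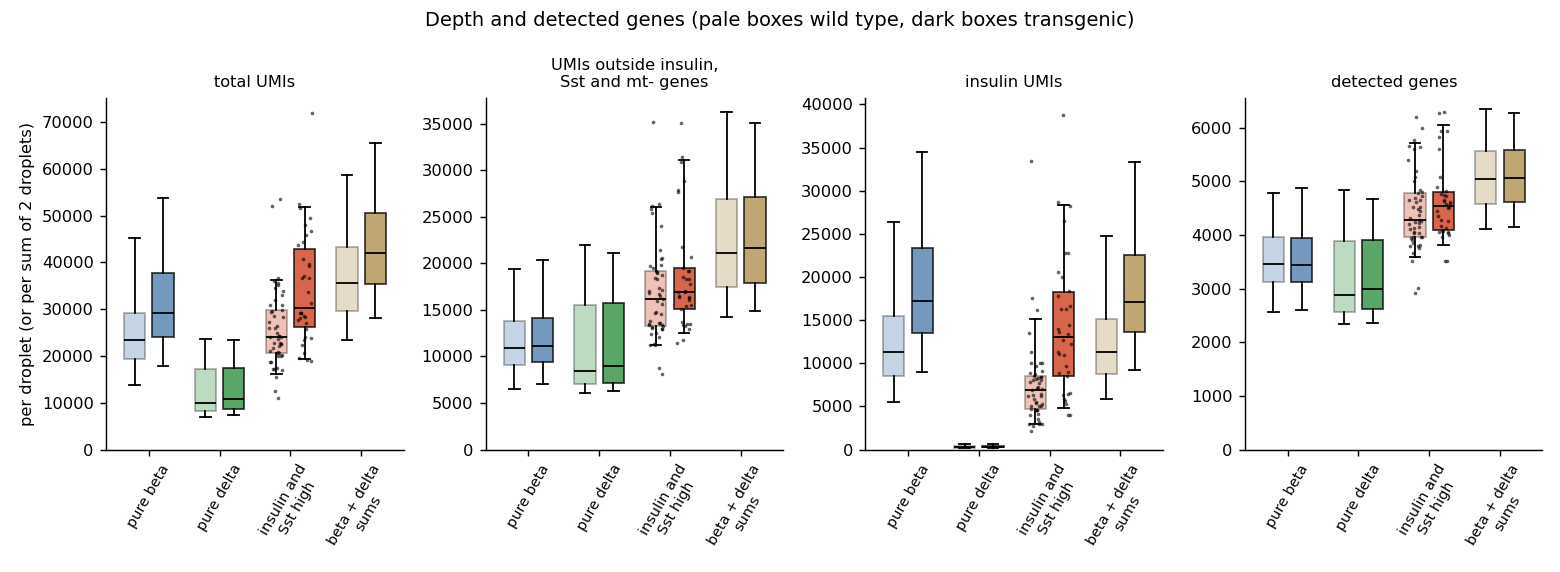
Total UMIs, UMIs outside insulin, Sst and mitochondrial genes, insulin UMIs and detected genes (y axes, per droplet or per sum) in pure beta, pure delta and Ins/Sst droplets and in beta plus delta sums that met the rule, wild type pale and transgenic dark. Boxes span the 25th to 75th percentile with the median as a line, whiskers the 5th to 95th percentile, and black points are single Ins/Sst droplets. Ins/Sst droplets sit between pure beta droplets and sums for detected genes (medians 4280 and 4549.5) and below both for insulin UMIs.

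Other droplets that combined high insulin with markers of another cell type gave a scale for these ratios. They were chosen after values had been seen and carried under 0.2% Sst where the second marker was a hormone. Droplets with at least 15% insulin and at least 1% Gcg (71 wild type and 48 transgenic) had 1.54 and 1.59 times the remaining UMIs and 0.706 and 0.732 times the insulin UMIs of pure beta droplets. Those with at least 1% pancreatic polypeptide mRNA (Ppy, 45 and 22 droplets) had 1.51 and 1.31 times the remaining UMIs, and 0.609 and 0.624 times the insulin UMIs. Insulin-high droplets with at least 30 UMIs of macrophage markers numbered 10 and 2 and had 0.552 and 0.461 times the pure beta insulin UMIs. Lower insulin UMIs with more remaining UMIs were thus measured in each of these sets as well as in the Ins/Sst droplets. These sets and the Ins/Sst droplets were admitted from 15% insulin, but pure beta droplets only from 25%. A lower insulin count with more remaining UMIs is therefore in part set by the thresholds, and the ratios are a description. Detected genes were 1.23 and 1.25 times the pure beta median in the Gcg-high set and 1.198 and 1.12 times in the Ppy-high set, beside 1.24 and 1.32 in the Ins/Sst droplets. The remaining UMIs of the hormone-high sets include the hormone that chose them. In the 8 and 4 insulin-high droplets with at least 20 UMIs of endothelial markers the insulin ratios were 0.540 and 0.814. Total UMIs were 1.14 and 1.06 times the pure beta median in the Gcg-high set and 1.09 and 0.956 times in the Ppy-high set. They were 0.925 and 1.01 times in the macrophage set and 0.871 and 0.988 times in the endothelial set. A total near the pure beta median, 1.03 and 1.04 times in the Ins/Sst droplets, was thus not particular to them. No sums were made for these other sets.

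The genes outside Ins1, Ins2, Sst and the mitochondrial genes, other hormones included, were then used to place each droplet between the pure classes. The delta weight is the share of its remaining UMIs that a maximum likelihood mixture of the pure delta and pure beta profiles assigns to delta, 0 for a pure beta and 1 for a pure delta profile. Summed over all Ins/Sst droplets of a library it was 0.465 in the wild type and 0.459 in the transgenic library. In beta plus delta sums that met the rule, the known share of such UMIs from the delta droplet had a median of 0.459 and 0.457. These are unlike measures, a fitted weight of pooled UMIs and the median of an unfitted share over single sums. Their closeness is therefore no measure of agreement.

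Single Ins/Sst droplets spread widely around this value. Wild type droplets had weights of 0.156 to 0.998 with a median of 0.409 (0.338 to 0.483), and transgenic ones 0.128 to 0.876 with a median of 0.403 (0.337 to 0.490). The 3 highest wild type weights, 0.998, 0.908 and 0.749, belonged to droplets with 3001, 1634 and 2568 Gcg UMIs, and the highest transgenic weight to one with 3989 Ppy UMIs. Without Ins/Sst droplets of at least 1% Gcg the summed weight was 0.392 in the wild type and 0.436 in the transgenic library. Without Iapp, Gcg, Ppy, Pyy and Npy it was 0.530 and 0.516. The weight lay between 0.1 and 0.9 in 47 of 49 and 34 of 34 Ins/Sst droplets. The same range held 3.27% and 4.08% of pure beta droplets, whose median weight was 0 and whose 95th percentile was 0.0448 and 0.0771. Among pure delta droplets 35.9% in each library fell below 0.9, with medians of 0.930 and 0.952. The pure classes built the profiles, so their own weights are no independent check.

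The weight was lower in droplets with a higher insulin share. Insulin and Sst chose the droplets, which are truncated at 15% insulin, so these relations are a description only. Across the 49 wild type Ins/Sst droplets its Spearman correlation with the insulin percentage was -0.69, and across the 34 transgenic ones it was -0.66. With total UMIs it was -0.01 and -0.18. With the Sst percentage it was 0.21 and -0.18. With Sst as a share of Sst plus insulin UMIs, which has insulin in its denominator, it was 0.49 and 0.30. These correlations are across droplets of 1 library, which share its depth and free RNA, and are given without a test.

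**Figure D3:**
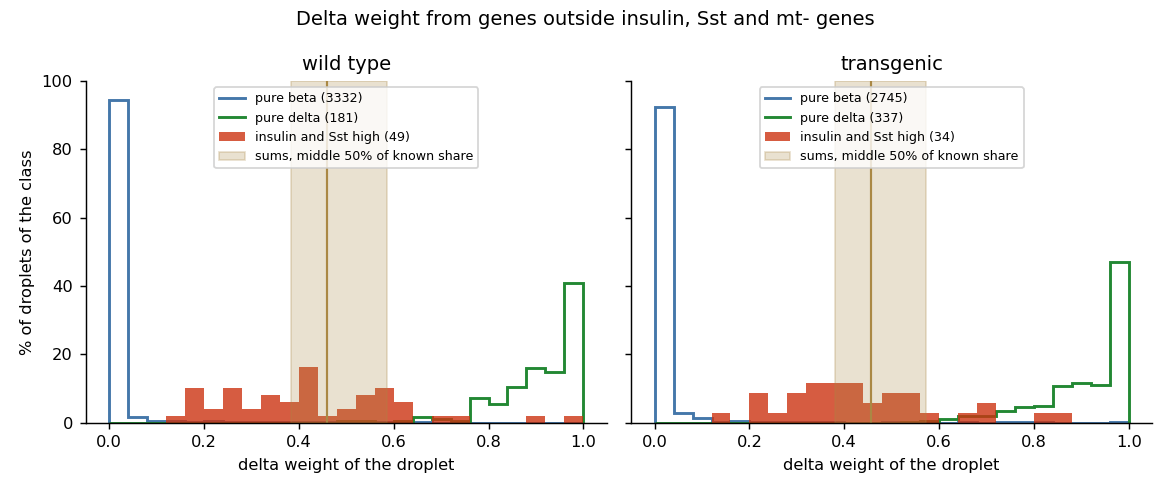
Delta weight of single droplets (x axis, 0 pure beta profile, 1 pure delta profile) and percent of the droplets of each class (y axis) in the wild type (left) and transgenic (right) library. The shaded band is the middle 50% of the known delta share in beta plus delta sums that met the rule, and its line the median (0.459 and 0.457). Ins/Sst droplets (red) spread between the pure classes with medians of 0.409 and 0.403.

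Over all 2318 genes with at least 100 UMIs, few differed by 2-fold from either pure class. Against pure beta droplets 57 (2.46%) were at least 2-fold higher and 24 (1.04%) lower in wild type Ins/Sst droplets, and 80 (3.45%) higher and 25 (1.08%) lower in transgenic ones. Against pure delta droplets 99 (4.27%) were higher and 10 (0.431%) lower in the wild type, and 77 (3.32%) higher and 8 (0.345%) lower in the transgenic library.

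Delta cell genes were carried by the Ins/Sst droplets well above the beta level. Of 14 delta genes listed, 8 had at least 20 UMIs over all Ins/Sst droplets (Hhex, Rbp4, Ly6h, Dpp6, Cd24a, Arg1, Ptprz1 and Spock3), and the other 6 (Ghsr, Cckbr, Casr, Lepr, Crhr2 and Bche) had 0 to 13. All 8 had a higher level than in pure beta droplets in both libraries, and 8 of 8 in the wild type and 7 of 8 in the transgenic library lay between the pure classes. Of all 2318 genes with at least 100 UMIs, 55.8% and 56.7% lay between. Of those at least 2-fold apart in the pure classes, 282 of 286 (98.6%) and 306 of 312 (98.1%) did. Ly6h and Dpp6 had been picked as markers of these droplets from the same data. The list's median log2 ratio was 4.72 over pure beta and -0.58 over pure delta in the wild type, and 4.31 and -0.77 in the transgenic library. Levels are in CPM, here the UMIs of a gene summed over droplets and scaled to a common total of the UMIs outside the insulin genes, Sst and mitochondrial genes.

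Hhex, the transcription factor that maintains delta cell identity, had 0 to 5 UMIs per Ins/Sst droplet with a median of 1 in both libraries. Its level was 78.9 CPM in wild type Ins/Sst droplets, 1.95 in pure beta and 113 in pure delta droplets, and 59.7, 3.13 and 121 CPM in the transgenic library. At least 1 Hhex UMI was found in 32 of 49 and 18 of 34 Ins/Sst droplets, against 1.98% and 3.50% of pure beta droplets. Thinned to 3000 remaining UMIs per droplet, which left out 30 wild type and 16 transgenic pure beta droplets, the shares were 20.2% and 14.8% against 0.517% and 0.863%.

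Ly6h, a small membrane-anchored protein of the Ly6 family, and Dpp6, a partner subunit of A-type potassium channels, had the same pattern. Ly6h stood at 192 CPM in wild type Ins/Sst droplets, 3.20 in pure beta and 299 in pure delta droplets, and at 130, 4.24 and 274 CPM in the transgenic library. It was detected in 38 of 49 and 26 of 34 Ins/Sst droplets and in 3.21% and 4.19% of pure beta droplets. Dpp6 had 72.8, 2.33 and 88.0 CPM in the wild type and 59.7, 6.74 and 80.5 CPM in the transgenic library. Only 2 of 49 and 1 of 34 Ins/Sst droplets lacked a UMI of all of Hhex, Ly6h and Dpp6, against 93.1% and 86.3% of pure beta droplets.

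Rbp4, the plasma retinol carrier, was the most abundant of the delta genes and was present in every Ins/Sst droplet. It had 1 to 103 UMIs (median 17) in the wild type and 4 to 108 (median 19.5) in the transgenic library. Its level was 1548 CPM against 69.8 in pure beta and 2831 in pure delta droplets of the wild type library, and 1373 against 78.8 and 2521 in the transgenic library. Cd24a, a glycoprotein of the cell surface, stood at 419 and 269 CPM, with 27.1 and 19.95 in pure beta and 545 and 536 in pure delta droplets. Arg1, the urea cycle arginase, had 61.9 and 104 CPM, with 3.92 and 5.05 in pure beta droplets. The 1 delta gene outside the range of the pure classes was Spock3, an extracellular matrix proteoglycan, at 26.7 CPM in transgenic Ins/Sst droplets from 17 UMIs, beside 25.6 in pure delta droplets.

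Most beta cell genes were lower than in pure beta droplets and higher than in pure delta droplets. Of 20 beta genes 17 had at least 20 UMIs. In each library 16 of 17 were below the pure beta level, and 16 of 17 in the wild type and 15 of 17 in the transgenic library were above the pure delta level. Of all 2318 genes with at least 100 UMIs, 48.6% and 50.5% were below the pure beta level. Of those at least 2-fold apart in the pure classes, 98.6% and 98.1% lay between them, so these counts are not particular to beta genes. Nnat, neuronatin, was below both pure classes in the transgenic library, at 104 CPM against 158 in pure beta and 116 in pure delta droplets. The other exception, in both libraries, was Tmem27, a membrane protein of the beta cell, at 414 and 528 CPM, which pure delta droplets carried at a higher level (540 and 659) than pure beta droplets (305 and 370). The median log2 ratio over pure beta was -1.09 in the wild type and -0.87 in the transgenic library. Mafa, Glp1r and Adcyap1r1 had 0 to 2 UMIs and give no level.

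Iapp encodes amylin, which is co-secreted with insulin, and it was the most abundant of these genes. Wild type Ins/Sst droplets held 273 to 2670 Iapp UMIs (median 881) and transgenic ones 497 to 2286 (median 1213). Its level was 53568 CPM against 106245 in pure beta and 23389 in pure delta droplets of the wild type library, and 65452 against 107898 and 26339 in the transgenic library. Nkx6-1, a transcription factor that maintains beta cell identity, had 115 and 152 CPM, with 264 and 268 in pure beta and 28.6 and 29.3 in pure delta droplets. Ucn3, a peptide of mature mouse beta cells that stimulates delta cells, had 178 and 171 CPM, with 533 and 464 in pure beta droplets. The glucose transporter Slc2a2 had 76.4 and 86.4 CPM, with 185 and 139 in pure beta and 7.61 and 7.77 in pure delta droplets.

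**Figure D4:**
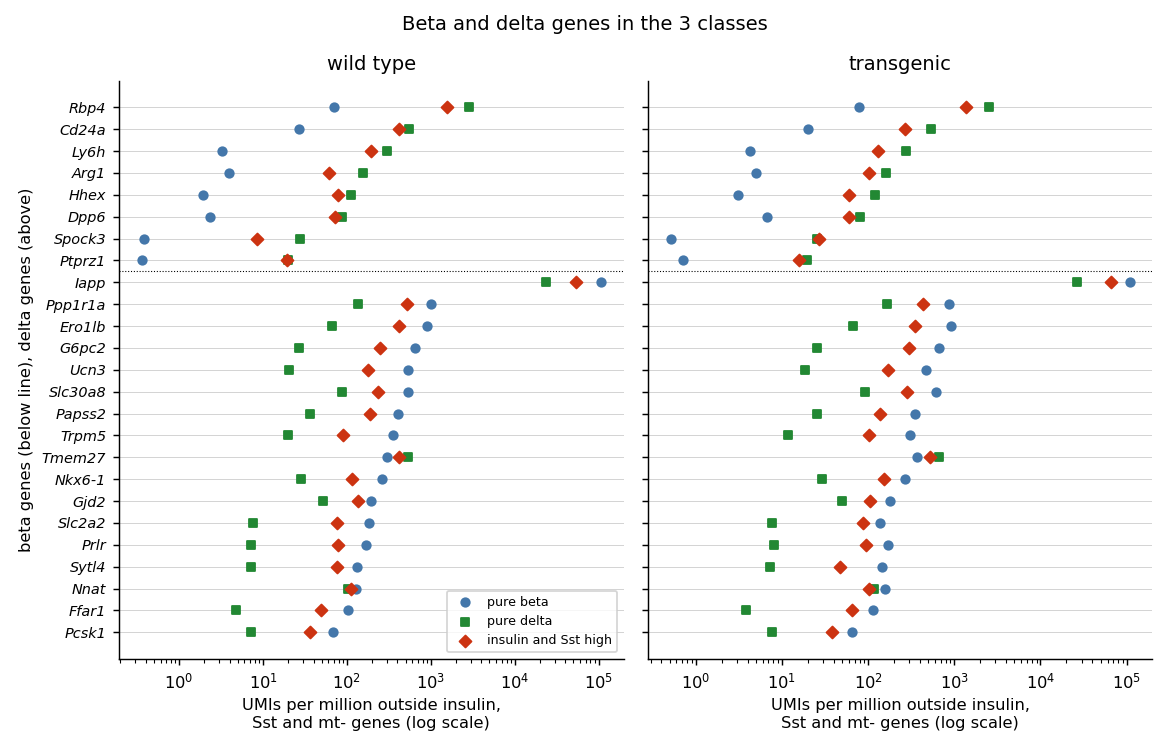
Level of the beta genes (below the dotted line) and delta genes (above it) with at least 20 UMIs in Ins/Sst droplets, in CPM of UMIs outside insulin, Sst and mitochondrial genes (x axis, log scale), summed over pure beta (circles), pure delta (squares) and Ins/Sst droplets (diamonds). In the wild type library (left) all 17 beta and 8 delta genes of the Ins/Sst droplets lie between the pure classes, and in the transgenic library (right) 16 and 7 do.

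UMIs of both programmes were found in the same droplets, not only in the sums. The delta genes include Ly6h and Dpp6, which had been picked as markers of these droplets from the same data, so the counts are a description. Summed over the listed genes other than Sst, wild type Ins/Sst droplets had 3 to 137 delta gene UMIs (median 34), pure beta droplets a median of 1 and pure delta droplets a median of 43. In the transgenic library the medians were 31, 1 and 40. Summed over the beta genes other than insulin and Iapp, they had medians of 45 and 51 UMIs, against 64 and 65 in pure beta and 12 and 13 in pure delta droplets. As a share of remaining UMIs, the delta genes exceeded the 95th percentile of pure beta droplets and the beta genes that of pure delta droplets in 34 of 49 (69.4%) and 25 of 34 (73.5%) Ins/Sst droplets. Both held in 4.71% and 4.81% of pure beta droplets and in 4.97% and 5.04% of pure delta droplets, values that the percentiles largely set. A UMI of both Hhex and Nkx6-1 was found in 24 of 49 and 14 of 34 Ins/Sst droplets, in 1.86% and 3.21% of pure beta and in 14.4% and 13.6% of pure delta droplets. These shares are without thinning, and depth enters them. Median remaining UMIs were 16215 and 16933 in Ins/Sst, 10953 and 11123 in pure beta and 8383 and 9010 in pure delta droplets.

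Hormones of the other islet cells were also present at raised levels, in the Ins/Sst droplets as in the pure delta droplets. Ppy, the hormone of gamma cells, made up at least 1% of UMIs in 19 of 49 wild type and 20 of 34 transgenic Ins/Sst droplets. This was so for 75.7% and 77.7% of pure delta droplets and for 0.840% and 0.729% of pure beta droplets. The level of Ppy was 16761 and 28043 CPM in Ins/Sst droplets, 4809 and 7207 in pure beta and 53096 and 53475 in pure delta droplets. Pyy, peptide YY, stood at 13501 and 13420 CPM, with 1473 and 1673 in pure beta and 28703 and 30903 in pure delta droplets. All 4 gamma genes with at least 20 UMIs (Ppy, Pyy, Tspan8 and Folr1) lay between the pure classes in both libraries. So did 98.6% and 98.1% of the genes at least 2-fold apart in those classes.

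Glucagon mRNA marked a smaller subset. Gcg reached 1% of UMIs in 7 of 49 and 5 of 34 Ins/Sst droplets, in 25.4% and 27.3% of pure delta droplets and in 1.53% and 1.79% of pure beta droplets, so the pure delta droplets were not free of alpha cell RNA. The median Ins/Sst droplet had 44 and 88.5 Gcg UMIs, and the highest 3001 and 3575. Without the Gcg-high Ins/Sst droplets, 42 and 29 remained, with 0.615 and 0.738 times the insulin UMIs and 1.34 and 1.48 times the remaining UMIs of pure beta droplets. Without those of at least 1% Ppy too, 25 and 10 remained, and the insulin ratios were 0.632 and 1.01. In the transgenic library the lower insulin count was thus not seen in these 10 droplets.

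Genes of endocrine progenitors and multihormonal cells mostly had few UMIs. Of 14 such genes 2 had at least 20 UMIs in the Ins/Sst droplets, Sox9 with 21 and Fev with 34, and both lay between the pure classes. Sox9, a progenitor and duct factor, was at 13.3 and 15.7 CPM, with 16.7 and 21.0 in pure delta droplets. Fev, a transcription factor of serotonergic neurons and endocrine precursors, was at 14.6 and 34.5 CPM, with 37.6 and 47.6 in pure delta droplets. Neurog3, the factor that starts endocrine differentiation, had 9 UMIs in all 83 droplets, and Pax4 had 0, as in the pure classes. Without thinning, Neurog3 was found in 6 of 49 and 3 of 34 Ins/Sst droplets. Pure beta droplets carried it in 0.780% and 0.911% and pure delta droplets in 21.5% and 23.1%. Genes shared by endocrine cells stayed near the mixture, with a median log2 ratio to it of 0.09 and -0.05 over 20 genes. Immediate early genes, which respond to stimulation and to dissociation, were below the pure beta level for 12 of 12 genes in both libraries, as were 48.6% and 50.5% of all 2318 genes, and 12 and 11 of them lay between the pure classes.

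Markers of cells outside the endocrine islet were near the level of the pure classes. Macrophage marker UMIs had a median of 2 in both libraries, with maxima of 10 and 7. Endothelial markers had maxima of 4 and 4, stellate cell and fibroblast markers of 1 and 1, and Schwann cell markers of 2 and 2. Acinar markers had medians of 1 and 2.5 and maxima of 20 and 9, and lymphocyte markers maxima of 19 and 16, with 178 of their UMIs from Cd79a, which 47.1% and 48.2% of pure beta droplets also carried. Over all 83 droplets the macrophage gene Adgre1, the endothelial gene Cd93, the stellate cell genes Col1a2 and Acta2, the acinar gene Amy2a5, the duct genes Krt19 and Cftr and the glial gene Sox10 were at 0 UMIs, and Ptprc, carried by all leukocytes, at 1. The genes at 0 were picked from their lists, and none was found in over 3.21% of pure beta droplets. Other members of the lists were detected. Without thinning, C1qa was found in 29 of 49 and 23 of 34 Ins/Sst droplets, Pecam1 in 11 and 6, and Cela1 in 13 and 17. In pure beta droplets the shares were, in that order, 44.3% and 47.8%, 7.23% and 6.89%, and 2.25% and 16.4%. Pure delta droplets had 53.6% and 59.3%, 11.6% and 13.1%, and 32.6% and 32.6%. The duct list held 48 of 49 and 34 of 34 droplets with at least 10 UMIs, from Krt8, Krt18 and Epcam, as did 2778 wild type and 2171 transgenic pure beta droplets. Cell cycle genes had maxima of 9 and 2 UMIs.

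Nearly all genes of the summed Ins/Sst droplets lay close to the mixture of the pure profiles at the fitted weight. The fit of the weight included these genes, and only 286 and 312 of the 2318 were at least 2-fold apart in the pure classes. Most genes would thus lie near any mixture of the pure profiles, and the closeness is a description. At 1.5-fold, 20 genes (0.863%) were above and 13 (0.561%) below the mixture in the wild type library, and 25 (1.08%) above and 20 (0.863%) below in the transgenic library. Of the 2318 genes, 2 (0.0863%) were at least 1.5-fold above the mixture in both libraries and 5 (0.216%) at least 1.5-fold below. The genes above were Ehf and Tspan33. Those below were Trpm5, Ucn3, Ttr, Gcg and Tmsb15b2. With Gcg-high Ins/Sst and pure delta droplets left out, neither Ehf nor Tspan33 was past 1.5-fold in both libraries. Itpr1 and Vcl then lay at least 1.5-fold above in both, and Trpm5, Ucn3 and Spc25 at least 1.5-fold below. Ttr, Gcg and Tmsb15b2 were then within 1.5-fold in both. With all droplets, the delta genes were above the mixture in 6 of 8 and 8 of 8 cases, with median log2 ratios of 0.50 and 0.30. The beta genes were below it in 15 of 17 and 14 of 17, with medians of -0.30 and -0.33. The median over all genes was 0.06 and 0.03, and the share of all genes above the mixture is not given here. These counts depend on the fitted weight, which was 0.530 and 0.516 without Iapp, Gcg, Ppy, Pyy and Npy. A higher weight raises the mixture level of delta genes and lowers that of beta genes, so the counts are a description.

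Ehf (2:103263433-103303278, minus strand, GRCm38), an epithelial transcription factor of the ETS family, ranked first by the smaller of its ratios in the 2 libraries, the measure used to order these genes. Its level was 102 and 94.2 CPM in wild type and transgenic Ins/Sst droplets, and the mixture gave 59.95 and 60.4. The log2 ratios were 0.77 (0.44 to 1.07) and 0.64 (0.25 to 1.01), with exact Poisson intervals. Pure delta droplets had 120 and 122 CPM and pure beta droplets 7.89 and 8.21, so Ehf remained inside the range of the pure classes. Without Gcg-high Ins/Sst and pure delta droplets its ratios were 0.70 and 0.38, the latter under 1.5-fold.

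Tspan33 (6:29694222-29718559, plus strand), a tetraspanin, was above both pure classes. Its level was 72.8 CPM against 51.0 in pure beta and 44.7 in pure delta droplets in the wild type library, and 62.8 against 37.7 and 33.7 in the transgenic library. The ratios to the mixture were 0.60 (0.21 to 0.96) and 0.81 (0.32 to 1.25), from 60 and 40 UMIs. Without Gcg-high Ins/Sst and pure delta droplets its ratios were 0.57, under 1.5-fold, and 0.90. Genes that followed by the smaller of their 2 ratios were Itpr1, the inositol trisphosphate receptor of the endoplasmic reticulum, Lima1 and Vcl, proteins of the actin cytoskeleton and its anchors, the phosphoinositide phosphatase Ocrl, the phosphatidate phosphatase Lpin2, and Gm11837, annotated as an antisense transcript. Their log2 ratios spanned 0.57 to 0.65 for wild type and 0.53 to 0.76 for transgenic droplets. Without Gcg-high droplets in both classes the transgenic ratios of Lima1 and Gm11837 were 0.14 and 0.12. Whether the counting separated reads of Gm11837 by strand from those of an overlapping gene was not checked.

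Trpm5 (7:143069153-143094642, minus strand), a calcium-activated cation channel of beta cells, was farthest below in the wild type library. It had 91.0 CPM against 199 in the mixture, and 104 against 171 in the transgenic library. The ratios were -1.13 (-1.47 to -0.80) and -0.72 (-1.09 to -0.38). Ucn3 had ratios of -0.72 (-0.97 to -0.49) and -0.60 (-0.88 to -0.33). Without Gcg-high Ins/Sst and pure delta droplets Trpm5 stood at -1.06 and -0.86 and Ucn3 at -0.81 and -0.74.

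The alpha cell genes Gcg and Ttr lay below the mixture in both libraries, and nearer to it without Gcg-high droplets, by little for Gcg in the wild type. Gcg had ratios of -0.60 and -0.75, and Ttr, the thyroid hormone carrier transthyretin, -0.66 and -0.69. Without Gcg-high droplets in both classes they were -0.56 and -0.26 for Gcg, and -0.46 and -0.06 for Ttr. Tmsb15b2, a thymosin with near-identical relatives that may share its reads, had -0.77 and -0.73 and then -0.48 and -0.28. Spc25, a kinetochore protein, Dapl1 and the metallothionein Mt2 followed by the smaller of their 2 ratios, with -0.56 and -0.63, -0.67 and -0.51, and -0.50 and -0.62. Spc25 and Dapl1 were both more abundant in pure beta than in pure delta droplets.

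**Figure D5:**
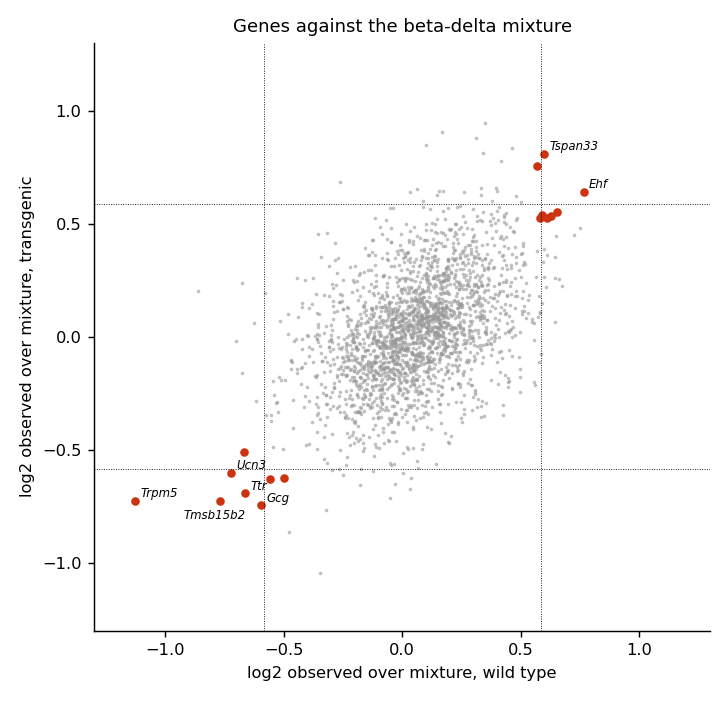
Log2 ratio of the summed Ins/Sst droplets to the fitted beta and delta mixture in the wild type (x axis) and transgenic (y axis) library for genes with at least 100 UMIs (Xist, with no wild type UMI in Ins/Sst droplets, is not drawn), with dotted lines at 1.5-fold. Red points are the genes named in the text, with names at those past 1.5-fold in both libraries. Ehf and Tspan33 lie above in both libraries, and 5 genes lie below.

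RNA of the X-inactivation gene Xist and of Y-linked genes gave a readout that the rule did not use. In the transgenic library some droplets carried Xist and others the Y-linked genes Ddx3y, Eif2s3y, Kdm5d and Uty. With at least 3 UMIs of each required, 0 of 34 transgenic Ins/Sst droplets had both (upper end of the exact interval 10.3%, and 3 counts of 34 would be 8.82%). Of beta plus delta sums that met the rule 6.63% had both, and the interval of the Ins/Sst droplets includes that share. The sums pair droplets of the whole library whatever their mouse. Cells that stayed attached come from the same mouse, so this readout does not cover them. Pure beta and pure delta droplets had both in 0.0729% and 0.297%.

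Xist reached 3 UMIs in 4 of 34 Ins/Sst droplets (11.8%), with 20, 38, 40 and 70 UMIs. Those droplets had 0, 0, 1 and 0 Y-linked UMIs in that order. Xist at this level with at most 1 Y-linked UMI was found in 7.25% of pure beta and 12.2% of pure delta droplets and in 7.62% of the sums, against 11.8% (3.30 to 27.5) of the Ins/Sst droplets. The class with at most 1 Y-linked UMI was chosen after its values were seen. The delta weights of the 4 droplets were 0.428, 0.510, 0.541 and 0.490. With at least 1 UMI of each, 4 of 34 Ins/Sst droplets (11.8%, 3.30 to 27.5) and 22.8% of the sums had both. No wild type Ins/Sst droplet had a Xist UMI, so the wild type library gives no such readout.

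The miR-503 transgenic and the wild type Ins/Sst droplets had similar profiles at this depth. In the transgenic library 3 of 2318 genes (0.129%) passed 2-fold upward and 3 (0.129%) passed it downward, with a median log2 ratio over all genes of -0.05. Scaled by total UMIs, which include insulin, the median was -0.32, and 24 genes were at least 2-fold lower. Of the higher genes 1 was Xist, with 0 wild type and 171 transgenic UMIs. The others were Dapl1 and Sox4.

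Dapl1 (2:59484653-59505020, plus strand), a small protein first linked to epithelial differentiation, was at 40.0 CPM in wild type and 108 CPM in transgenic Ins/Sst droplets. The log2 ratio was 1.44 (0.82 to 2.08, exact binomial interval), beside 1.32 in pure beta and 0.59 in pure delta droplets. Sox4, a transcription factor of endocrine development, was at 57.0 and 127 CPM, a ratio of 1.16 (0.62 to 1.71), beside 0.31 in pure beta and 0.998 in pure delta droplets. Next came the secreted chaperone clusterin (Clu, 0.91), the tubulin Tubb2a (0.85), Hist1h4h (0.84), 1 of many near-identical histone genes whose counts are uncertain, and Tfg (0.83), a protein of transport from the endoplasmic reticulum.

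Pde10a (17:8525372-8986648, plus strand), a cyclic nucleotide phosphodiesterase, was at 116 CPM in wild type and 48.7 CPM in transgenic Ins/Sst droplets. The log2 ratio was -1.26 (-1.89 to -0.66), beside -0.81 in pure beta and -0.48 in pure delta droplets. Ttbk2, a tau tubulin kinase, had -1.02. Erdr1, which lies in the region shared by the X and Y chromosomes, had -1.01. The same genes, which with Pde10a make up the 3 past 2-fold, had -0.74 and -0.85 in pure beta droplets. Under other settings some of these values lay inside 2-fold: Ttbk2 was at -0.89 as a mean over droplets, Erdr1 at -0.99 with TMM factors, and Sox4 at 0.89 when scaled by total UMIs. Cpeb4, an mRNA polyadenylation factor, had -0.97, the mitophagy receptor Bnip3 -0.95 and Cep170b, which binds microtubules, -0.88.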

How the data were processed

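The authors deposited raw counts, whole UMI numbers for each gene in each droplet. Per the submitters' processing notes, the tools were Cell Ranger 2.1.0 and STAR 2.5.1b and the build mm10. The annotation release and the filter behind the 4540 wild type and 4158 transgenic barcodes are not given in the sources used here. Total UMIs were 104677537 and 109243270. The limit of 10% mitochondrial UMIs removed 17 and 7 barcodes. The libraries share 25 barcodes, none of them in an Ins/Sst droplet.

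The droplets and gene lists were chosen with earlier results of these data known. UMIs were summed per class and library and scaled by UMIs outside Ins1, Ins2, Sst and mitochondrial genes. Every beta and delta pair was enumerated, with none drawn at random, and genes of a pair are the union of both droplets. Intervals of 95% are exact Clopper-Pearson, Poisson or conditional binomial ones, and those of medians come from order statistics. With 1 library per genotype they cover counting error only. The mixture fit used all genes with a UMI in either pure profile and was tested on simulated data. Of 161 list genes 2 (Trac and Trbc2) were not matched by symbol. Gene coordinates are from GENCODE on GRCm38.

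No doublet was removed. Scrublet in scanpy 1.11.5 marked 5 (0.111%) and 14 (0.337%) droplets at its automatic threshold, too few to be a working call, so its top 4% of scores served only as an alternative. That top held 11 of 49 and 19 of 34 Ins/Sst droplets, 4.05% and 4.23% of pure beta and 1.66% and 1.78% of pure delta droplets.

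Named were the beta and delta list genes with at least 20 UMIs, and the 8 highest and 8 lowest ratios to the mixture among genes with at least 100 UMIs and the same direction in both libraries. Also named were the 6 highest and 6 lowest ratios between libraries at 100 UMIs and 20 CPM, without sex-linked genes, and Sst, Ins1, Ins2, Gcg, Ppy, Iapp, Hhex, Nkx6-1, Xist and Y-linked genes by prior interest. Other genes of the lists were chosen after their values were seen. Alternatives were other limits, weights, minimum counts and scalings, including TMM factors from edgeR 4.0.16. The packages scipy 1.17.1, numpy 2.4.6, pandas 2.3.3 and matplotlib 3.10.9 under Python 3.11.15 were used.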

Additional observations from a re-analysis of the deposited data

How the results depend on the processing

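Under other settings, 49 values stayed within the spread or within 1.5 times the count, and 19 moved. Of those added after seeing the data 12 stayed and 2 moved. With Sst at least 2% there were 24 wild type and 18 transgenic Ins/Sst droplets, with insulin at least 25% there were 30 in the wild type, and without the top Scrublet scores 15 in the transgenic library. The summed delta weight was then 0.376 in the wild type for insulin at least 25% and 0.562 in the transgenic library without the top Scrublet scores. The ratio of UMIs to pure beta droplets was 1.48 and 1.52 when insulin, Sst and mitochondrial genes were left out. The 2 genes above the mixture became 10 at 50 UMIs, 0 at 300 UMIs, 0 at 2-fold, 7 with the median weight of the droplets and 4 without Gcg-high pure delta droplets. They became 3 without Gcg-high Ins/Sst and pure delta droplets, with neither Ehf nor Tspan33 past 1.5-fold in both libraries. The 5 genes below became 2 at 300 UMIs, 0 at 2-fold, 9 with the median weight and 3 without Gcg-high Ins/Sst and pure delta droplets. With at least 1 UMI of Xist and Y-linked genes 4 droplets had both. Between libraries, a minimum of 10 UMIs gave 361 higher and 495 lower genes of 9563 and total UMIs gave 24 lower genes. Fewer UMIs per gene enter at the lower minimums. The cause of the other changes was not tested.

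No paired analysis was possible because each genotype has 1 library, and leaving out a replicate was not possible for the same reason. With 83 droplets, genes under 100 UMIs have wide counting intervals, and a share of 0 of 34 droplets cannot be told apart from shares under 10.3%.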
